A study of Mus musculus with 8 samples.

Results

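Egfl7, Fgl2 and Serpinb1a encode a secreted vessel factor, a fibrinogen-like immune regulator and a protease inhibitor, and their transcripts were 7.06-fold, 4.33-fold and 6.40-fold lower in Jagn1 knockout plasmablasts than in control plasmablasts. The 3 genes were picked by symbol, as genes outside the usual pathway lists whose counts were lower in every knockout library, and they are 3 of the 24413 gene symbols counted. Because that comparison chose them, their levels are given here as a description with no test. The measured cells were CD22-CD138+ plasmablasts of C57BL/6J mice, early antibody-making cells, sorted after splenic B220+ B cells had spent 4 days with 25 µg/ml lipopolysaccharide (LPS). The 4 knockout libraries came from Jagn1 fl/fl Mb1Cre+ mice, in which the recombinase is made from the B cell gene Cd79a, and the 4 control libraries came from Jagn1 fl/fl mice for which no Cre is listed, so the deletion and the presence of Cre cannot be told apart. Both groups shared the floxed alleles, the strain, the culture and the sort. The series text names 4 mice per genotype.

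EGFL7 is a secreted protein with EGF-like repeats, best known from blood vessel lining cells, where it shapes vessel growth and can bind Notch receptors. Its gene also hosts the microRNA miR-126. FGL2 belongs to the proteins with a fibrinogen-like domain. It exists as a membrane form that can cleave prothrombin and as a secreted form that dampens immune responses through inhibitory Fc receptors. SERPINB1A is an intracellular serpin, an inhibitor that traps neutrophil-type serine proteases such as elastase and cathepsin G, and it also restrains inflammatory caspases.

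Libraries read the 3′ ends of transcripts. They held 5882912 to 10066661 counts, and 3 counts in a library corresponded to 0.292 to 0.483 CPM (read counts scaled by the TMM-adjusted library total). Because each transcript gives a tag at its end, levels of different genes were compared without dividing by length. Jagn1 itself had 16 to 99 counts in the control libraries and 1 or 2 in the knockout libraries. Control replicates 1 and 4 stood apart from the rest, deviating from the mean of the group by 0.594 and 0.581 log2 units (root mean square over genes), where the others deviated by 0.324 to 0.432. Values without both are given for the 3 genes and for the neighbouring gene whose direction turned.

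Sequence is shown first for the parts of the 3 loci on which the later sections rest. Egfl7 spans chr2:26580014-26593120 on the plus strand (GRCm38, GENCODE M21), with 19 annotated transcripts, and the miR-126 hairpin gene Mir126a lies inside it at chr2:26591357-26591429. The mature arm is printed because its published targets form one of the lists below, with the seed (bases 2 to 8) in capitals, from RefSeq on GRCm38.p6:
miR-126a-3p: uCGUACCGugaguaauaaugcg

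Fgl2 spans chr5:21372642-21378374 on the plus strand and has 2 exons. Serpinb1a spans chr13:32842092-32851185 on the minus strand, and the coding transcript has 7 exons. RefSeq promoter entries (250 bases before to 50 after a start) were found for 2 of the 3 genes, with 3 entries for Egfl7 and 1 for Fgl2. Serpinb1a had no entry. A stretch of 100 bases outside annotated exons is shown for the Fgl2 entry, chr5:21372542-21372641, and for the second Egfl7 entry, chr2:26583764-26583863, both on the plus strand of GRCm38.p6, with the motif letters found in capitals:
Fgl2: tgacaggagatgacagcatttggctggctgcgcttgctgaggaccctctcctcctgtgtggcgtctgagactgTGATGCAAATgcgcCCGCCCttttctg
Egfl7: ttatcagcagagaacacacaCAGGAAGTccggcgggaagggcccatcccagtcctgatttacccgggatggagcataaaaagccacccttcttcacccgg

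Of 10 motifs searched on both strands, the Fgl2 entry held the octamer ATGCAAAT, which B cell octamer factors bind, and the amino acid response element core TGATGCAA, which ATF4 partners bind. These 2 matches overlap in the sequence above. Across 32851 RefSeq promoter entries of the same length, 1.74% held the octamer and 0.895% held TGATGCAA. The Fgl2 entry also held an AP-1 site, TGAGTCA, nearer the start than the printed stretch (5.2% of entries), and a GC box, GGGCGG (35.7%). The second Egfl7 entry held an ETS site, CAGGAAGT (3.33%), the third held GC boxes and the first held none of the 10. The other motifs searched were an interferon-stimulated element, the E-box CACGTG, the cyclic AMP element TGACGTCA, TATAAA and the SREBP site TCACNCCAC, which 3.44%, 7.15%, 1.79%, 13.6% and 1.24% of entries held, and none of these was in an entry of Egfl7 or Fgl2. A match is only a run of letters.

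Fgl2 had the highest level of the 3 genes in both groups. Its SD was also the smallest share of the mean, at 19.7% in control and 11.9% in knockout libraries. Control replicates 1 to 4 gave 41.4, 29.1, 45.6 and 33.9 CPM (295, 181, 328 and 349 counts). Knockout replicates 1 to 4 gave 8.58, 8.90, 9.82 and 7.32 CPM (64, 62, 75 and 61 counts). All 4 knockout libraries thus lay close together and well below every control library, the lowest control value being 2.96 times the highest knockout value. The means were 37.5 ± 7.39 and 8.66 ± 1.03 CPM (SD, n = 4 each), and the log2 fold change was -2.11 ± 0.22 (SE), or 4.33-fold lower. Within the knockout group the counts varied no more than counting alone gives, with a chi-square per degree of freedom of 0.99, against 10.2 in the control group. In the order of tested genes by level, Fgl2 moved from percentile 66.1 in the control to percentile 31.7 in the knockout.

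Serpinb1a came next in level. Control replicates 1 to 4 gave 27.2, 17.1, 21.6 and 13.3 CPM (194, 106, 155 and 137 counts), and knockout replicates 1 to 4 gave 4.56, 4.45, 1.44 and 1.92 CPM (34, 31, 11 and 16 counts). The knockout libraries fell into a higher pair, replicates 1 and 2, and a lower pair, replicates 3 and 4, but the groups did not overlap and the lowest control value was 2.92 times the highest knockout value. The means were 19.8 ± 5.99 and 3.09 ± 1.64 CPM (SD, n = 4 each), and the log2 fold change was -2.68 ± 0.38 (SE), or 6.40-fold lower. Here the knockout counts spread more than counting alone gives, with a chi-square per degree of freedom of 6.72.

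Egfl7 was the lowest of the 3. Control replicates 1 to 4 gave 9.26, 4.18, 13.8 and 7.20 CPM (66, 26, 99 and 74 counts). In knockout replicates 1 to 4 it gave 1.07, 2.15, 1.05 and 0.60 CPM (8, 15, 8 and 5 counts), where a single library's exact 95% Poisson interval ran as wide as 0.195 to 1.4 CPM in replicate 4. The groups did not overlap, but the gap was the narrowest of the 3 genes, with the lowest control value, replicate 2, 1.94 times the highest knockout value, replicate 2. The means were 8.6 ± 4.03 and 1.22 ± 0.66 CPM (SD, n = 4 each), and the log2 fold change was -2.82 ± 0.49 (SE), or 7.06-fold lower. It passed the count filter of 1.34 CPM in all 4 control libraries but in only 1 knockout library, so it entered the fit through the group in which it was high. Fgl2 and Serpinb1a passed it in all 8.

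**Figure D1:**
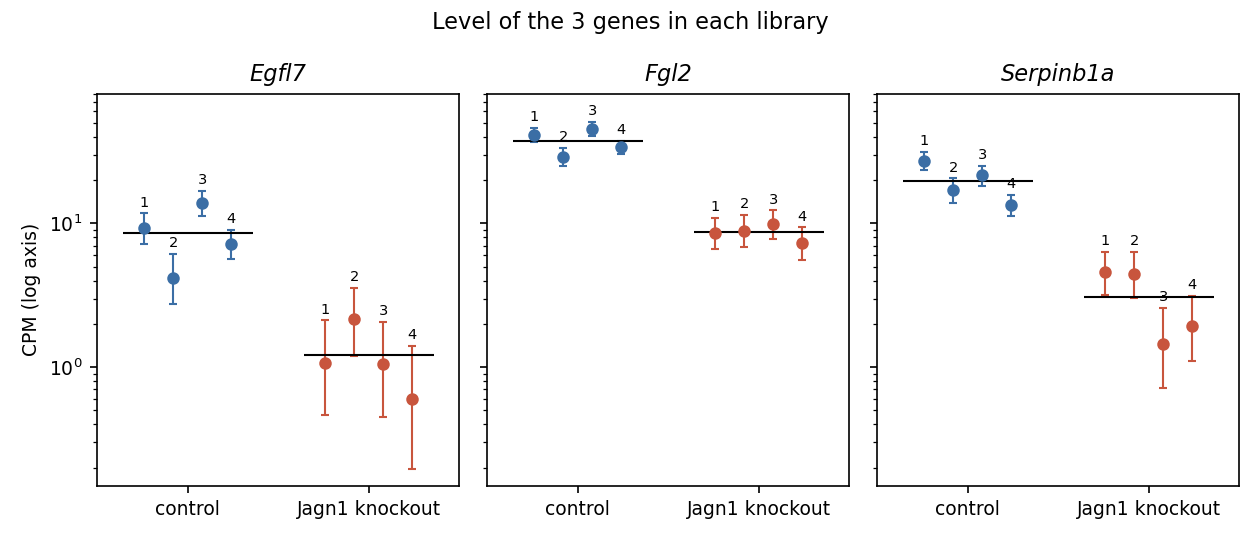
Level of Egfl7, Fgl2 and Serpinb1a in each library, in CPM on a log axis. Points are libraries numbered by replicate, bars are exact 95% Poisson intervals of the count (counting error only) and lines are group means. Every knockout library lies below every control library for each gene, from 0.60 to 2.15 CPM against 4.18 to 13.8 CPM for Egfl7.

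Read as pooled counts, the knockout kept 13.8% of the control level of Egfl7 (36 against 265 counts, exact 95% interval 9.44% to 19.6%), 15.8% of Serpinb1a (92 against 592, 12.5% to 19.7%) and 23.0% of Fgl2 (262 against 1153, 20.1% to 26.4%). These intervals cover counting error only. In the list of 9904 genes tested, ordered from the lowest log2 fold change, Egfl7 stood at place 4, Serpinb1a at place 5 and Fgl2 at place 21. A log2 fold change of -2 or below was found for 0.242% of tested genes. Groups that did not overlap, with the knockout lower, were found for 6.64% (6.45% with the knockout higher), and 3.19% passed the edgeR test in the lower direction (2.54% in the higher). The rule for choosing the 3 genes used this same contrast, so nothing is read from their place in it. Without control replicates 1 and 4 the log2 fold changes were -2.88 for Egfl7, -2.11 for Fgl2 and -2.65 for Serpinb1a. In bulk samples, fewer cells that express a gene and less RNA per cell cannot be told apart.

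The order of levels was Fgl2, Serpinb1a, Egfl7 by mean in both groups. In the control the ranges of Fgl2 (29.1 to 45.6 CPM) and Serpinb1a (13.3 to 27.2 CPM) did not overlap, while Serpinb1a and Egfl7 (4.18 to 13.8 CPM) met at their edges. In the knockout Fgl2 (7.32 to 9.82 CPM) again lay apart, and Serpinb1a (1.44 to 4.56 CPM) and Egfl7 (0.60 to 2.15 CPM) overlapped. Within each of the 8 libraries, however, the order was Fgl2, Serpinb1a, Egfl7. With group means removed, Egfl7 and Fgl2 varied together over the 8 libraries (Pearson r = 0.82), Egfl7 and Serpinb1a less so (0.54) and Fgl2 and Serpinb1a least (0.26). Within the control libraries alone these 3 values were 0.98, 0.50 and 0.67, and within the knockout libraries alone 0.57, 0.61 and -0.05. These are descriptions over 8 libraries, and within a library the 3 genes share its depth and its sort. Control replicate 3 was the highest control library for both Egfl7 and Fgl2 and control replicate 2 the lowest, whereas Serpinb1a was highest in control replicate 1 and lowest in control replicate 4.

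Several annotated genes have exons that overlap those of Egfl7. On the same strand its exons share 264 bases with the gene model Gm20532, annotated as protein-coding, which is not among the symbols used here, and 73 bases with Mir126a. On the opposite strand they share 58 bases with Mir126b and 64 bases with the 3′ end of Agpat2, an enzyme gene of phosphatidic acid synthesis. Only the overlap with Gm20532 reaches into the last 500 bases of a protein-coding Egfl7 transcript of the GENCODE basic set, by 81 bases. Mir126a and Mir126b had 0 counts in all 8 libraries, and 3′ tags of polyadenylated RNA do not measure mature microRNAs. Agpat2 gave 0.70, 5.63, 0.97 and 1.26 CPM in control replicates 1 to 4 and 1.57 to 2.55 CPM in the knockout, giving 0.11 ± 0.66 on the log2 scale (edgeR adjusted p = 0.958). The highest Agpat2 value and the lowest control value of Egfl7 were both in control replicate 2. No annotated exon overlaps those of Fgl2, which lies within the span of Ccdc146 on the opposite strand, and no annotated gene overlaps Serpinb1a.

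Ccdc146, a coiled-coil protein gene, did not follow Fgl2. It gave 10.9, 1.13, 1.95 and 9.14 CPM in control replicates 1 to 4 and 4.31 to 7.08 CPM in the knockout, giving -0.003 ± 0.54 on the log2 scale (edgeR adjusted p = 0.998). The 2 high control libraries are those that stand apart, and without them it was 1.9 (edgeR adjusted p = 0.0196), opposite in direction to that of Fgl2.

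Of the 3 nearest protein-coding genes on each side of the 3 genes, 17 were among the symbols used, 9 were tested and 0 passed (edgeR; 0.0045, for Lrrc17, was the only unadjusted p under 0.05 among them, and DESeq2 and limma-voom also called Lrrc17). Next to Egfl7, the receptor gene Notch1 stood at 36.4 ± 9.81 CPM in control libraries and 38.2 ± 9.89 CPM in knockout libraries (log2 fold change 0.07 ± 0.24, edgeR adjusted p = 0.923), and Sec16a, which organises ER exit sites, at 33.8 ± 5.24 and 32.6 ± 6.50 CPM (SD, n = 4 each). Inpp5e had a log2 fold change of -0.16 ± 0.88, and Fam69b, Lcn4 and Abo had 0 counts in all libraries. Next to Fgl2, Rsbn1l, Ptpn12 and Fam185a had log2 fold changes of 0.03, 0.22 and -0.10, Fbxl13 had 0 counts, and Gsap had -0.86 ± 0.77 where control replicate 4 had 9.82 CPM and the remaining controls 0.483 to 1.54 CPM. Lrrc17, a leucine-rich repeat gene, was very abundant and ran the other way, at 2859 ± 929 and 4663 ± 928 CPM (log2 fold change 0.71 ± 0.21, edgeR adjusted p = 0.067), and it passed without control replicate 4 (0.89, edgeR adjusted p = 0.00589). Next to Serpinb1a, Wrnip1, a gene of DNA replication repair, was the one neighbour tested (0.39 ± 0.33, edgeR adjusted p = 0.6), and Mylk4 had at most 1 count in any library.

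**Figure D2:**
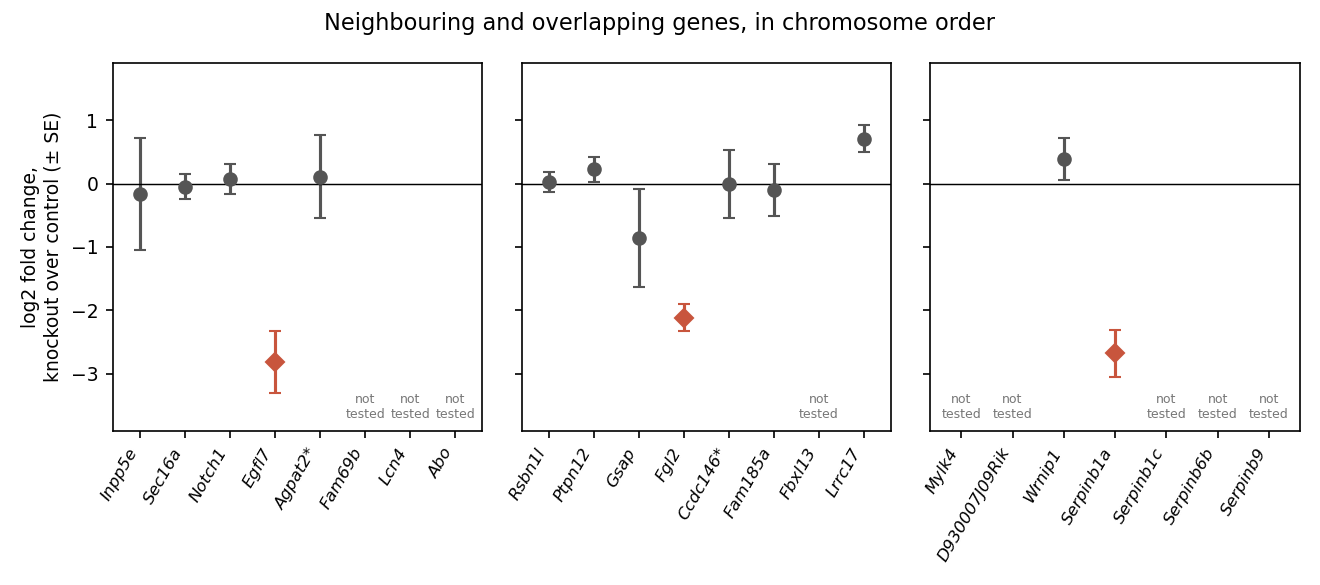
Log2 fold change, knockout over control, with its standard error (edgeR), of the 3 genes (diamonds) and their neighbouring and overlapping genes (circles; overlapping genes are marked with an asterisk), in chromosome order and not to scale. Genes with too few counts, and D930007J09Rik, which is not among the symbols used here, are marked as not tested. The neighbours lie between -0.86 and 0.71, while the 3 genes lie between -2.82 and -2.11.

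Close relatives of the 3 genes were few. Among 27 clade B serpins, counting Serpinb1a, its sister genes gave almost no reads. Serpinb1b had 0 counts in all 8 libraries, and Serpinb1c had 1, 0, 3 and 3 in control replicates 1 to 4 and 0 in the knockout. Serpinb1a held 66.8% to 96.0% of the family's counts in the control and 22.4% to 61.8% in the knockout. Serpinb6a, a related intracellular inhibitor, was the one other member tested, at 3.31 ± 1.97 and 4.43 ± 1.35 CPM (SD, n = 4 each) (log2 fold change 0.41 ± 0.53, edgeR adjusted p = 0.764). Of the neighbouring serpins, Serpinb6b had 2 counts in knockout replicate 3 and none elsewhere, and Serpinb9, an inhibitor of granzyme B, had 15 counts in control replicate 2 and at most 1 in any other library.

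In the fibrinogen-domain family the leading gene differed between the groups. Fgl2 held 60.5% to 73.2% of the counts of 22 family members in the control and 4.2% to 6.28% in the knockout. Angptl6, a secreted angiopoietin-like protein gene and the one member besides Fgl2 that was tested, rose from 13.6 ± 5.63 to 162 ± 24.5 CPM (SD, n = 4 each) (log2 fold change 3.59 ± 0.28, edgeR adjusted p = 5.88e-06). It gave 13.2, 17.9, 17.7 and 5.83 CPM in control replicates 1 to 4 and 146 to 198 CPM in the knockout. The family's summed counts therefore rose from 1662 to 5210 while those of Fgl2 went from 1153 to 262. Fgl1, the nearest relative of Fgl2, had 0 counts. Egfl6 and Egfl8, the relatives of Egfl7, were too low to test, with at most 15 counts in any library.

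**Figure D3:**
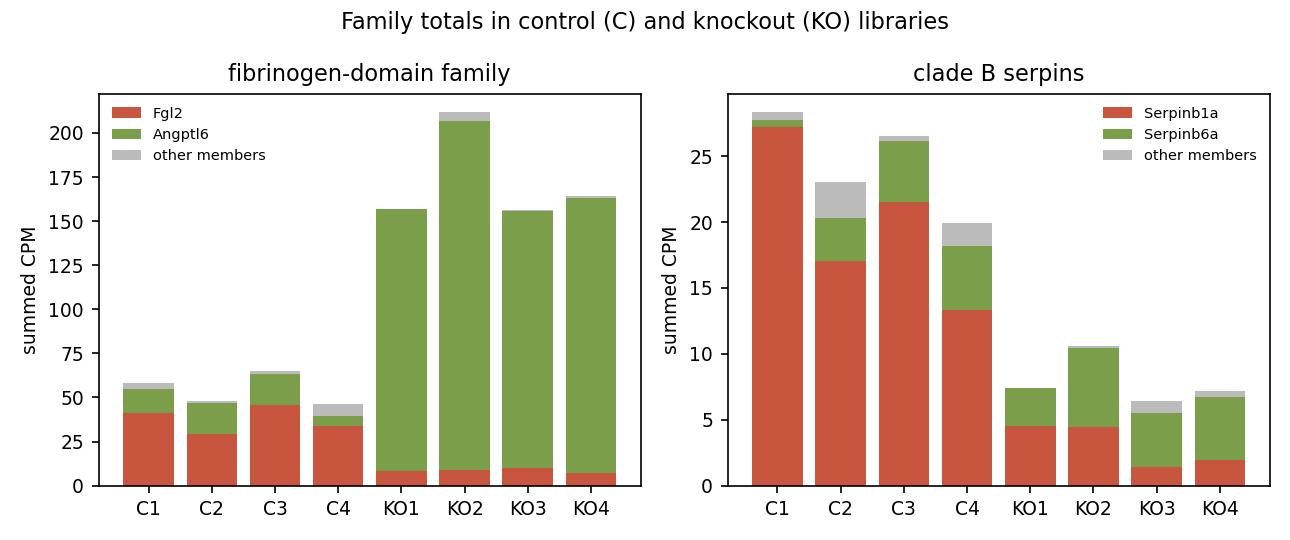
Summed CPM of the fibrinogen-domain family and of the clade B serpins in control (C1 to C4) and knockout (KO1 to KO4) libraries, as stacked bars from 0. Fgl2 makes up 60.5% to 73.2% of its family's counts in the control and 4.2% to 6.28% in the knockout, where Angptl6 fills most of the bar.

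Lists of genes that work with or control the 3 proteins held few tested members each, and between 0 and 5 of a list passed. The share of all tested genes that passed the edgeR test in either direction was 5.74%, and their median log2 fold change was -0.01. In the Notch pathway, through which EGFL7 can act, 0 of 27 tested genes were higher and 1 was lower (3.7%), with a median of -0.02. The lower one was Maml3, a co-activator of Notch targets, at 37.6 ± 12.5 and 21.6 ± 0.438 CPM (log2 fold change -0.80 ± 0.22, edgeR adjusted p = 0.0481). It no longer passed when any 1 of control replicates 1, 2 and 3 or of the 4 knockout replicates was dropped (adjusted p up to 0.148). Among 9 tested relatives, partners and regulators of EGFL7, 1 was higher and 1 lower (22.2%), with a median of -0.39. Ets1, a transcription factor gene of lymphocytes and vessels, fell from 230 ± 19 to 154 ± 16.4 CPM (-0.58 ± 0.14, edgeR adjusted p = 0.0208), and its relative Ets2 rose from 72.3 ± 17.2 to 141 ± 28.3 CPM (0.97 ± 0.20, edgeR adjusted p = 0.00871). Dropping control replicate 2 or 3, or knockout replicate 2 or 4, ended the call of Ets1 (adjusted p up to 0.11), and dropping knockout replicate 2 ended that of Ets2 (0.0507).

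Of 8 tested published targets of miR-126, 0 passed (edgeR; 1 at an unadjusted p under 0.05, 1 with DESeq2 and 1 with limma-voom), with a median log2 fold change of -0.28. Pitpnc1, a phosphatidylinositol transfer protein gene, stood at 13.4 ± 3.3 and 6.55 ± 1.97 CPM (SD, n = 4 each) (-1.03 ± 0.30, edgeR adjusted p = 0.0596) and passed when control replicate 1 was dropped (-1.18, edgeR adjusted p = 0.0145). Twf1, an actin-binding protein gene, had -0.44 ± 0.27. The microRNA itself was not measured.

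Around FGL2, 7 genes of coagulation and its inhibitors were tested, of which 0 were higher and 1 was lower (14.3%), with a median of 0.28. Thbd, which encodes thrombomodulin, the receptor that turns thrombin towards anticoagulation, had 21, 36, 27 and 30 counts in controls 1 to 4 and 1, 3, 9 and 9 in knockouts 1 to 4. It fell from 3.85 ± 1.35 to 0.706 ± 0.505 CPM (log2 fold change -2.40 ± 0.63, edgeR adjusted p = 0.0366), and dropping control replicate 2, control replicate 3 or a single knockout library ended the call (adjusted p up to 0.144). All 4 knockout libraries lay below the count filter of 1.34 CPM, so Thbd entered the fit through the group in which it was high. Its call is therefore a description only. Of 12 FGL2 receptors and immunoregulatory molecules, 1 was higher and 2 were lower (25%), with a median of -0.11. Ebi3, a subunit of interleukin-27 and interleukin-35, rose from 61.5 ± 10.9 to 110 ± 12.7 CPM (edgeR adjusted p = 0.00628). The checkpoint gene for VISTA (4632428N05Rik) fell from 240 ± 43.6 to 150 ± 12.3 CPM (edgeR adjusted p = 0.0134), a call lost without knockout replicate 1, 2 or 3 (up to 0.0632). Entpd1, the ATP-degrading surface enzyme CD39, fell from 16.0 ± 6.88 to 7.13 ± 1.14 CPM (edgeR adjusted p = 0.0419), a call that ended on dropping control replicate 2 or a single knockout library (up to 0.16). The inhibitory Fc receptor gene Fcgr2b, which was chosen after its values were seen because it encodes a receptor for FGL2, stood at 0.12 ± 0.33 on the log2 scale (edgeR adjusted p = 0.904).

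Interferon-gamma, which raises FGL2 in other cells, signals through the genes of a further list, where 1 of 22 tested was higher and 4 were lower (22.7%), with a median of -0.28. The factor gene Irf8 fell from 174 ± 19.8 to 92.4 ± 13.2 CPM (log2 fold change -0.91 ± 0.15, edgeR adjusted p = 0.00177). Irf7 and the GTPase gene Igtp had -1.02 ± 0.25 and -1.32 ± 0.31 (edgeR adjusted p = 0.0248 and 0.0208). Dropping knockout replicate 1, 2 or 3, or control replicate 3, ended both calls (adjusted p up to 0.104 for Irf7 and 0.0833 for Igtp), and dropping control replicate 2 ended that of Irf7. Cxcl10, a chemokine gene, went the other way, from 4, 6, 10 and 0 counts in controls 1 to 4 to 38, 64, 46 and 49 in knockouts 1 to 4 (edgeR adjusted p = 0.00899), and lost its call without knockout replicate 2 (0.0581). With the count filter at 1.34 CPM, Cxcl10 entered the fit through the knockout group (5.09 to 9.19 CPM, against 0 to 1.39 CPM in the control).

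Around SERPINB1A, the neutrophil protease genes Elane and Ctsg had 0 counts in all libraries. Of 15 tested serine proteases, cathepsins and inflammatory caspases 2 were higher and 0 lower (13.3%), with a median of 0.26. Cela1, a chymotrypsin-like elastase gene, had 9, 1, 8 and 14 counts in controls 1 to 4 and 57, 67, 66 and 54 in knockouts 1 to 4 (log2 fold change 2.99 ± 0.48, edgeR adjusted p = 0.00133). It too entered the fit through the knockout group (6.48 to 9.62 CPM, against 0.161 to 1.36 CPM in the control). Ctsd, the lysosomal protease cathepsin D, rose from 629 ± 113 to 1076 ± 111 CPM (0.77 ± 0.15, edgeR adjusted p = 0.00654). The caspase genes Casp1 and Casp4, which were chosen after their values were seen because SERPINB1 restrains their products, had 0.26 ± 0.31 and 0.49 ± 0.19 (edgeR adjusted p = 0.747 and 0.183).

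**Figure D4:**
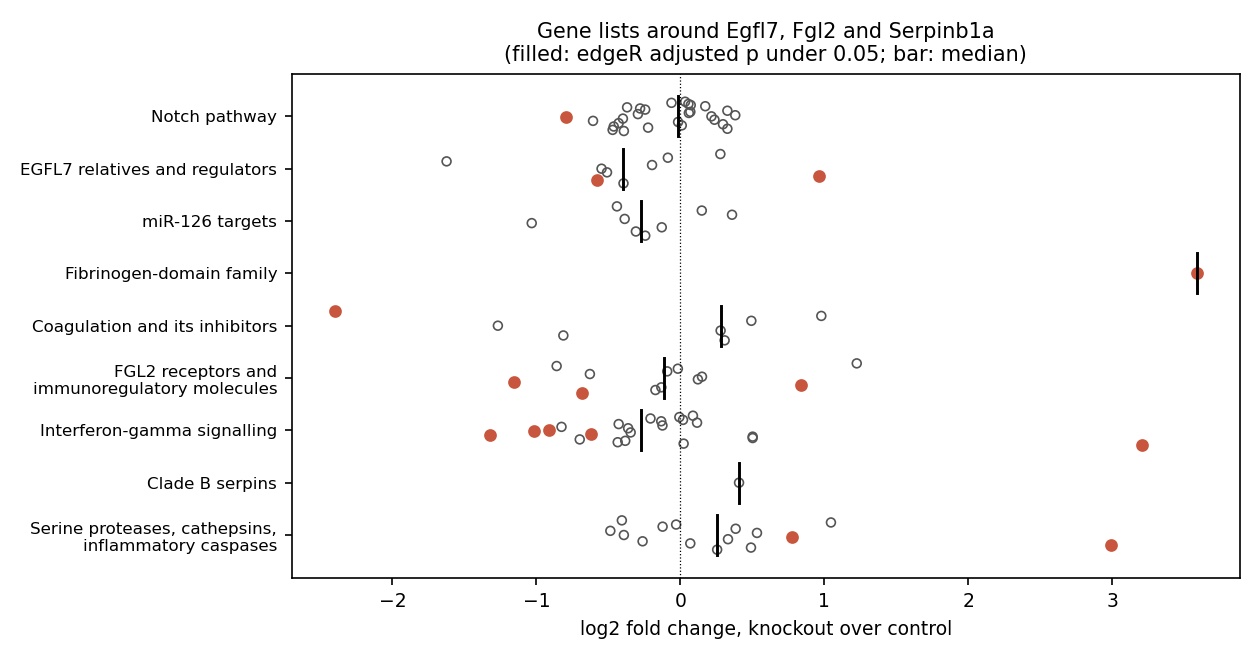
Log2 fold change, knockout over control, of every tested gene of the 9 lists around Egfl7, Fgl2 and Serpinb1a, which are themselves in none of them. Filled points passed the edgeR test at an adjusted p under 0.05 and bars are list medians, which lie between -0.39 and 0.41 except in the fibrinogen-domain list, where Angptl6 is the one gene tested.

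The genes whose levels followed each of the 3 most closely over the 8 libraries were found by Pearson correlation of log2 CPM among 8130 genes. For Fgl2 they were Hsd17b12 (r = 0.996), which encodes an enzyme of fatty acid elongation, the desaturase gene Scd1 (0.988), the acyl-CoA binding protein gene Dbi (0.986), the kinase gene Ptk2b (0.984) and the lysosomal cholesterol carrier gene Npc2 (0.984). For Egfl7 they were Hn1 (0.986), Gimap7 (0.965), Ifi27l2a (0.965), Tnfaip8 (0.964) and the cholesterol synthesis gene Nsdhl (0.962). For Serpinb1a they were the mitochondrial ribosomal gene Mrpl49 (0.984), the glycolytic gene Pkm (0.982), the sigma-2 receptor gene Tmem97 (0.970), Bst2 (0.968) and the histone gene Hist1h4i (0.962). All 15 were lower in every knockout library than in any control library, a pattern that choosing them by their correlation with the 3 genes favours. With group means removed, Hsd17b12 was also among the 3 genes nearest to Fgl2 (r = 0.950). Others near in that measure were Atg16l1 and Rnf220 for Fgl2 (0.950 and 0.949), Skp1a and Basp1 for Egfl7 (0.961 and 0.960), and Pkib, Snord55 and Nbn for Serpinb1a (0.985, 0.962 and 0.937), and for each of these 7 genes the groups overlapped. With 8 libraries and this many genes, correlations of this size are descriptions only.

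The 3 genes are best known from other cells, so markers of those cells were counted in the same libraries. Of 18 endothelial markers, 11 had 0 counts everywhere, among them Kdr, Tie1, Tek and Vwf. The list summed to 19.9 to 32.3 CPM in control libraries and 19.4 to 25.3 CPM in knockout libraries, most of it Pecam1 (24.2 and 20.8 CPM on average). Esam, an adhesion molecule gene of this list that was too low to test, had 0, 24, 17 and 2 counts in controls 1 to 4 and 0, 2, 2 and 0 in knockouts 1 to 4. The mean of Esam was thus lower in the knockout (1.6 ± 1.85 and 0.137 ± 0.159 CPM, SD, n = 4 each), while the groups overlapped. In control replicates 1 to 4 Esam gave 0, 3.86, 2.36 and 0.194 CPM, where Egfl7 gave 9.26, 4.18, 13.8 and 7.20 CPM. Esam was thus highest in the control library in which Egfl7 was lowest. Eng, the next most abundant marker of this list and also too low to test, had a higher mean in the knockout. It stood at 0.65 ± 0.415 CPM in control and 0.91 ± 0.56 CPM in knockout libraries (SD, n = 4 each), and the groups overlapped. The part of either gene in the level of Egfl7 was not tested. Of 15 neutrophil markers 9 had 0 counts everywhere, among them Mpo, Elane, S100a8 and S100a9, and the list's 92.0 to 146 and 86.4 to 160 CPM were nearly all Cxcr2 (105 CPM in both groups on average). Of 16 monocyte and macrophage markers 7 had 0 counts, among them Cd14, Lyz2 and Marco, with sums of 3.75 to 11.6 and 6.36 to 7.75 CPM. These sums of the cells from which Egfl7, Serpinb1a and Fgl2 are best known overlapped between the groups. Sums also overlapped for T cells (41.6 to 58.4 and 30.0 to 43.6 CPM, 0 of 16 markers at 0), for natural killer cells (3.62 to 9.82 and 3.59 to 5.11 CPM, 3 of 12 at 0), for dendritic cells (107 to 149 and 91.3 to 119 CPM, 2 of 10 at 0), for platelets (1.54 to 4.45 and 2.01 to 8.04 CPM, 6 of 8 at 0) and for erythroid cells (at most 0.875 CPM, 8 of 10 at 0). Of 5 tested dendritic cell markers 0 were higher and 1 was lower, where 3.19% of all tested genes were lower. The lower one was Bst2, at 36.1 ± 4.09 and 19.3 ± 3.78 CPM (edgeR adjusted p = 0.012). Its call was lost without knockout replicate 2 or 3 (adjusted p up to 0.0592).

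Markers of the sorted cells were present throughout. All 16 plasmablast markers were detected and summed to 28447 to 35965 CPM in control libraries and 22577 to 28585 CPM in knockout libraries, led by Mzb1 (20591 and 18321 CPM on average), an ER chaperone of antibody assembly. Of these, 1 passed the edgeR test upward and 5 downward, where 2.54% and 3.19% of all tested genes did, and among the lower ones was Jchain, the joining chain of secreted IgM (log2 fold change -0.89 ± 0.19, adjusted p = 0.0122), whose call ended on dropping control replicate 3, knockout replicate 1 or knockout replicate 2 (adjusted p up to 0.0713). The summed markers of earlier B cells overlapped between the groups (1114 to 1512 and 1165 to 1295 CPM, 0 of 19 markers at 0), with 1 of 18 tested markers higher and 2 lower. One of the lower ones was Cd79a, the gene that carries the Cre in the knockout mice, which fell from 304 ± 77.5 to 147 ± 23.5 CPM (SD, n = 4 each; log2 fold change -1.04 ± 0.19, edgeR adjusted p = 0.00313) and kept its call under all 16 alternatives. The part of Cd79a in the levels of Egfl7, Fgl2 and Serpinb1a was not tested. For the plasmablast and T cell lists, whose sums overlapped between the groups, the two-sided exact permutation p was 0.0571 each. Both were 0.21 after Benjamini-Hochberg adjustment over the 11 lists. Of 11 marker lists, 1 had groups that did not overlap. Markers of marginal zone and B1 cells, the innate-like B cells that respond fast to LPS, summed to 590, 543, 584 and 653 CPM in control replicates 1 to 4 and 338 to 382 CPM in the knockout (two-sided exact permutation p = 0.0286, the smallest that 4 against 4 libraries can give, and 0.21 after Benjamini-Hochberg adjustment over the 11 lists). Most of the difference lay in Spn, which encodes CD43 and fell from 244 ± 25.9 to 99.6 ± 25.5 CPM (SD, n = 4 each) (log2 fold change -1.29 ± 0.17, edgeR adjusted p = 0.000362), the one of 14 tested markers of this list that passed. Plac8 and Dtx1, the next most abundant markers of the list, had lower means in the knockout, but their groups overlapped. Plac8 stood at 74.3 ± 72.2 and 26.5 ± 8.23 CPM (edgeR adjusted p = 0.24), with 177 CPM in control replicate 4. Dtx1 stood at 145 ± 22.1 and 105 ± 14.1 CPM (edgeR adjusted p = 0.114). No marker of this list was at 0 in all libraries. This list was low in the same libraries as Egfl7, Fgl2 and Serpinb1a, and its part in their lower levels was not tested.

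**Figure D5:**
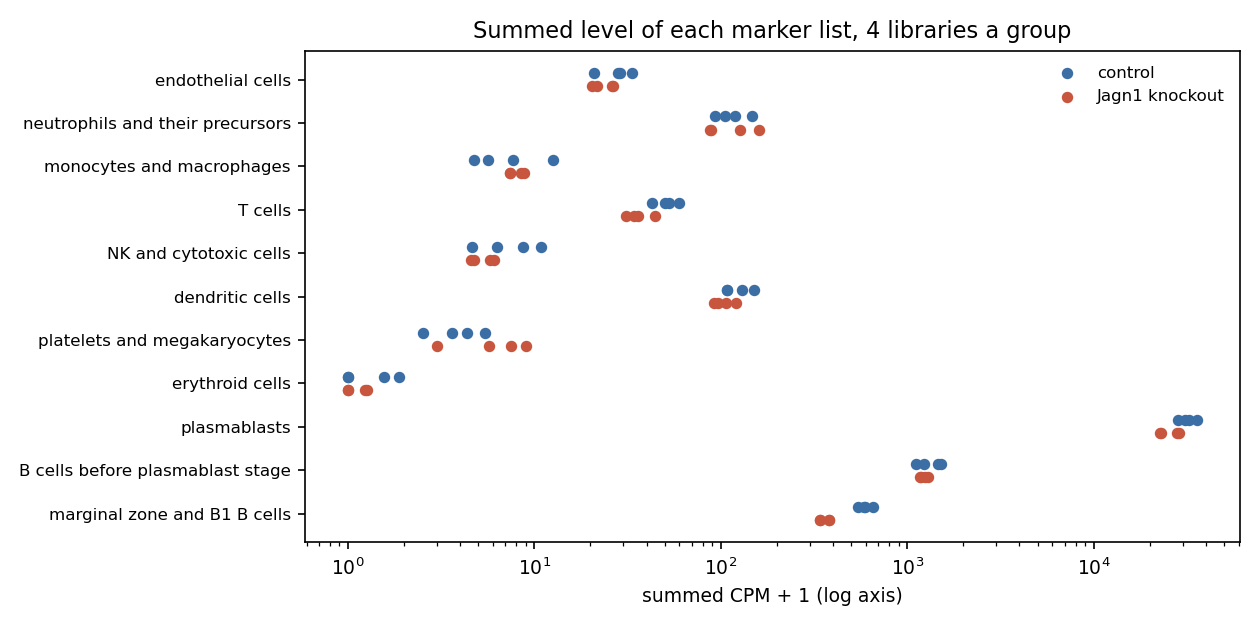
Summed CPM plus 1, on a log axis, of each list of cell type markers in the 4 control and 4 knockout libraries. The groups overlap in 10 of the 11 lists, and only the marginal zone and B1 list, at 543 to 653 CPM in control libraries and 338 to 382 CPM in knockout libraries, separates them.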

How the data were processed

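For each library the authors deposited raw read counts, 1 whole number for every gene symbol. Per the labels' protocols, each library was made with the QuantSeq 3′ mRNA-Seq kit (FWD) using 500 ng of total RNA. The submitters' processing notes name the mm10 build, TopHat2 2.1.1, BWA 0.7.12, HTSeq 0.6.1 and SAMtools 1.3.1. Which annotation was counted, and with which strand setting, was not given in the sources used here, so reads of genes that overlap on opposite strands may be shared. Counts may include PCR copies.

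Genes were filtered with filterByExpr (minimum count 10, minimum total 15), leaving 9904 of 24413, scaled with TMM and tested with edgeR 4.0.16 (R 4.3.3; robust quasi-likelihood F-test, two-sided, Benjamini-Hochberg over all tested genes, threshold 0.05). Standard errors are the log2 fold change over the square root of F, and log2 CPM used a prior count of 2. Alternatives used DESeq2 1.42.0, limma 3.58.1 (voom with sample weights), other scalings and filters, a replicate block and fewer libraries. Every pair of libraries within a group differed by more than sampling noise (chi-square per degree of freedom at least 6.6 over genes with 20 or more pooled counts). The fit was tested on counts simulated for this comparison (9706 genes), where it found 20.8% of genes changed 1.5-fold, 64.9% at 2-fold and 87.1% at 4-fold. Of its 134 calls there, 12 fell on unchanged genes. Most 1.5-fold changes were thus missed. Marker sums were compared with exact permutation tests.

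The 3 genes, the gene and marker lists and the motifs were chosen with earlier results of these data known. Named genes were the 3 genes, Jagn1, the genes most correlated with each of the 3 (average log2 CPM of at least 2, no predicted models), from each list the called members of smallest p (at most 4; with none called, the 2 of smallest p), all overlapping and nearest genes, and the 3 most abundant markers per list. Relatives and markers named beyond that rule were chosen after their values were seen. One gene that the rule names is not reported here. Of 384 list entries 378 matched by symbol and 2 by an older symbol.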

Additional observations from a re-analysis of the deposited data

Results flagged for a closer look

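A library counted as standing apart when its gap to the nearest of its group, as a share of the group's range, passed Dixon's 95% critical value. Chance gives this in about 1 in 20 groups of 4, and 152 groups were checked. None of the groups of Egfl7, Fgl2 or Serpinb1a met it. Near Egfl7, Agpat2 was high in control replicate 2 (5.63 CPM, others 0.70 to 1.26) and low in knockout replicate 3 (1.57 CPM, others 2.44 to 2.55). Near Fgl2, Gsap was high in control replicate 4 (9.82 CPM, others 0.483 to 1.54) and Ptpn12 was low in control replicate 2 (20.4 CPM, others 30.3 to 32.1). Among genes that followed the 3, Scd1 was low in knockout replicate 4 (119 CPM, others 131 to 133), Dbi was high in knockout replicate 1 (286 CPM, others 235 to 242), Tmem97 was low in knockout replicate 3 (63.4 CPM, others 85.1 to 89.0) and Bst2 was high in knockout replicate 1 (24.9 CPM, others 17.0 to 18.4). Among list and marker genes, Ctsd was low in knockout replicate 4 (910 CPM, others 1114 to 1147), Nkg7 was at 0 in control replicate 3 (others 2.24 to 2.66 CPM) and Ccr7 was high in knockout replicate 2 (9.33 CPM, others 5.16 to 5.50).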

How the results depend on the processing

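The log2 fold changes of the 3 genes kept their sign under all 16 alternatives and moved by less than the spread between replicates, leaving out single libraries included (Egfl7 -3.23 to -2.5, Fgl2 -2.22 to -2.0, Serpinb1a -2.93 to -2.44). The 568 genes called became 858 with DESeq2, 1070 with limma-voom and 901 without control replicates 1 and 4. Leaving out single libraries gave 270 to 892 genes (368 without control replicate 2, 366 without control replicate 3, 892 without control replicate 4, 344 without knockout replicate 1, 270 without knockout replicate 2 and 344 without knockout replicate 3). The 1 call in the Notch list became 2 with DESeq2, RLE scaling, library totals or a mean count of at least 20, and 3 with limma-voom or without control replicates 1 and 4. The miR-126 list had 1 call with DESeq2, limma-voom or without control replicates 1 and 4. The coagulation list had 0 with a mean count of at least 20, where Thbd is not tested, and the protease list 4 with limma-voom or without control replicates 1 and 4. Leaving out single libraries, calls ran from 0 to 2 in the Notch list, 0 to 3 among EGFL7 relatives and regulators, 0 to 1 among miR-126 targets, 0 to 1 in coagulation, 1 to 4 among FGL2 receptors and immunoregulatory molecules, and 1 to 5 in interferon-gamma signalling. The cause was not tested. Ccdc146 turned from -0.003 to 1.9 without control replicates 1 and 4. Of 1162 values of named genes under alternatives, 1078 kept their call. These include values that changed sign in genes called in neither fit, such as Ccdc146 with limma-voom (1.1).

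The labels do not say that replicate numbers pair libraries, and same-numbered libraries did not deviate together (r = -0.0034 to 0.066), nor did every library correlate best with its own number. With the replicate block 509 genes were called, and the log2 fold changes were -2.80 for Egfl7, -2.10 for Fgl2 and -2.74 for Serpinb1a. The block gave 0 calls in the Notch list, 0 in coagulation and 3 in interferon-gamma signalling.

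Depth limits Egfl7 most, with 5 to 15 counts in the knockout libraries.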
